A study of Zea mays with 4 samples.

Results

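The broad peaks described here are regions of 500 bp or more in the second of 2 lists of binding peaks for the maize transcription factor P1. The members were chosen by their width, the end of a peak minus its start as deposited, among peaks on chromosomes 1 to 10. A total of 3434 peaks met the rule, 23.4% of the 14647 peaks that the second list holds on these chromosomes and a smaller part of the 35143 peaks of both lists. They are compared with the 4384 peaks of the same list that are exactly 200 bp wide, the smallest width in it, and with the 6829 peaks of intermediate width, over 200 and under 500 bp.

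P1 is the product of pericarp color1, a regulator of the R2R3-MYB family. In the pericarp, the maternal outer layer of the kernel, it switches on genes of flavonoid synthesis whose products polymerise into the red phlobaphene pigments. In chromatin immunoprecipitation followed by sequencing (ChIP-seq), an antibody pulls down the DNA fragments that a protein sits on, and a peak is a stretch where sequenced fragments pile up in the sample over the control. The width of such a peak reflects both the fragment length and how far the pile-up extends.

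The samples were pericarps peeled at 14 days after pollination without aleurone. The P-rr plants carry the P1-rr allele and express P1. The P-ww plants carry the non-functional P1-ww allele of the inbred A619 and do not. The P-rr line was bred from stock 65-CFS-305 by 6 generations of backcrossing to A619 and 3 of selfing. It keeps donor DNA on chromosome 1, from 35 to 66 Mb, and on chromosome 6, from 89 to 102 Mb. The donor stock carries the related P2 gene beside P1-rr, whereas A619 lacks P2, so the genotypes differ in more than P1. All 4 libraries, 2 per genotype, were precipitated with the same polyclonal antibodies against P1, from chromatin sheared to about 300 bp. The authors called peaks within each pair, P-rr replicate 1 over P-ww replicate 1 (first duplicate) and P-rr replicate 2 over P-ww replicate 2 (second duplicate). The rule for broad peaks uses only the widths of the second duplicate, but it was set with earlier results of these data known.

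The lists hold peak positions and a score per peak, and no read counts. The depth of the libraries is therefore unknown, and the intervals given below cover the counting of peaks only. Peaks of 1 list are not replicates of a genotype, so no test was run. The lists hold no expression values, and neither the tissue nor the presence of P1 could be checked in them. No source used here names the genome build of the lists, so neither genes nor DNA sequences are assigned to the regions. Positions are those of the lists, counted from 1.

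Most broad peaks were only moderately wide. Their median width was 582.5 bp, with an interquartile range of 542 to 679.75 bp. Between 500 and 550 bp there were 1032 peaks, and between 550 and 600 bp there were 1070 (each class includes its lower limit and not its upper one). A further 822 peaks measured 600 to 750 bp, 434 measured 750 to 1000 bp, and 76 reached 1000 bp or more. The kilobase class was thus a small tail. The broad peaks covered 2162 kb, which is 40.2% of all the sequence under peaks of the second duplicate on the chromosomes, although they were 23.4% of the peaks. The rule does not fall in a gap of the distribution, since 383 peaks measured 480 to 500 bp and 393 measured 500 to 520 bp. Just outside and just inside the limit the median score was 51.32 and 52.96, and the share overlapping the first duplicate was 4.44% and 2.80%.

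Broad peaks carried low scores. The score is the authors' own value from the peak caller. No file states its scale, and it comes from the same call as the width, so it is a description. Broad peaks had a median score of 52.54 (interquartile range 45.34 to 65.04), intermediate peaks had 62.35 (50.58 to 86.62), and 200 bp peaks had 116.93 (93.08 to 168.85). Scores below 60 were held by 65.7% of broad peaks and by 6.48% of 200 bp peaks. A score of 200 or more was held by 24 broad peaks, 0.699% of them, against 701 of the 200 bp peaks, 16.0%. The broad median lay between 51.48 and 53.90 on every one of the 10 chromosomes, while the 200 bp median was 116.93 on each. Within the broad class the median score differed little with width, from 50.35 at 500 to 550 bp to 59.91 at 1000 bp or more. Repeated scores were fewer among broad peaks: the 10 commonest values made up 16.4% of them and 46.5% of the 200 bp peaks. The commonest broad score was 43.32, shared by 211 peaks, and the commonest 200 bp score was 116.93, shared by 480.

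**Figure D1:**
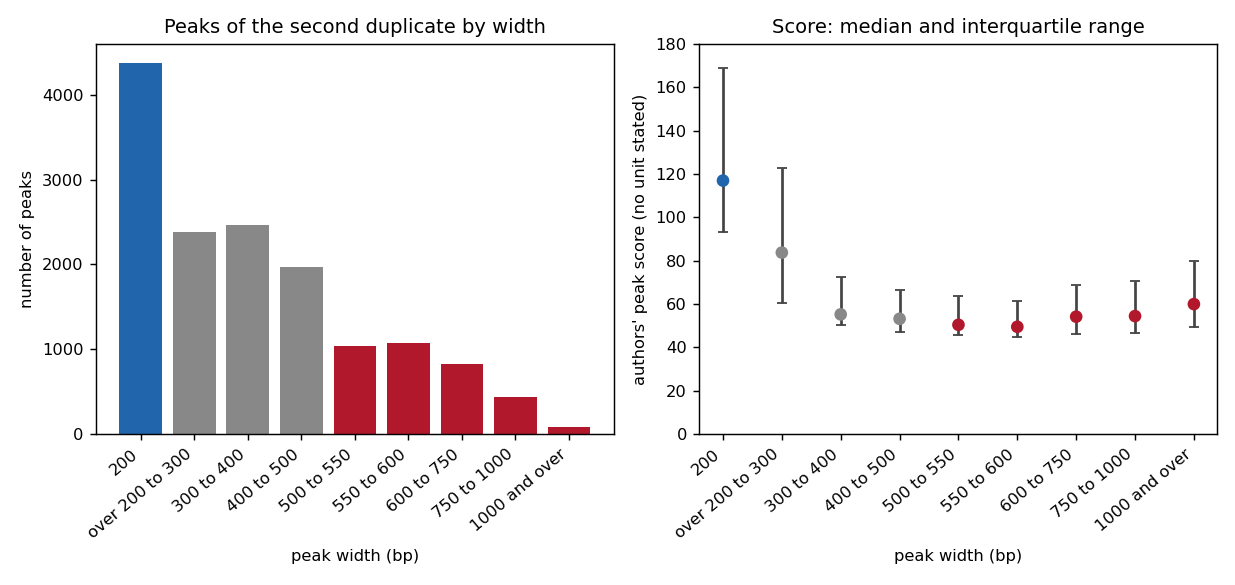
Left, number of second-duplicate peaks on chromosomes 1 to 10 in each class of width (bp); right, median (point) and interquartile range (bar) of the authors' score in the same classes, with 200 bp peaks in blue, intermediate peaks in grey and broad peaks in red. The score falls from a median of 116.93 at 200 bp to 53.13 at 400 to 500 bp and stays between 49.43 and 59.91 in all broad classes.

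The widest member stood far from the others. It measured 2925 bp at 138468411 to 138471335 of chromosome 10, with a score of 437.59, and its nearest first-duplicate centre was 45.0 kb away. The next widest were 1743 bp at 296616759 to 296618501 of chromosome 1, with a score of only 40.68, and 1554 bp at 210990406 to 210991959 of chromosome 1, with 97.65. The fourth measured 1466 bp at 99722950 to 99724415 of chromosome 3 (score 141.34) and the fifth 1458 bp at 110146201 to 110147658 of chromosome 5 (score 49.33). The remaining members of the 10 widest measured 1372 to 1453 bp and lay on chromosomes 2, 5, 8 and 9. Their scores ran from 42.88 to 333.37, so great width went with both low and high scores. Of the 10, 1 overlapped a first-duplicate peak, beside 5.85% of all broad peaks. That region, of 1374 bp at 78719535 to 78720908 of chromosome 8, holds the whole of a 200 bp first-duplicate peak at 78720162 to 78720361, whose score there was 74.80.

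The broad peaks with the highest scores lay on chromosomes 1, 7, 8, 9 and 10. The highest score, 908.09, belonged to a 765 bp peak at 207902329 to 207903093 of chromosome 1, with no first-duplicate centre within 100 kb (nearest at 117.9 kb). The second, 906.71, belonged to a 508 bp peak at 7346471 to 7346978 of chromosome 7, whose nearest first-duplicate centre was 5.03 kb away. These stood apart from the rest, since the third was the 2925 bp peak of chromosome 10 at 437.59. The next were a 747 bp peak at 122089438 to 122090184 of chromosome 9 (368.71) and a 1415 bp peak at 9740618 to 9742032 of the same chromosome (333.37). The remaining 5 of the 10 scored 268.11 to 325.75. Among the 10, the peak at 273985888 to 273986776 of chromosome 1 (889 bp, score 325.75) was the one that overlapped the first duplicate, by 187 bp, with a 200 bp peak scored 328.46 there. A count of 1 in 10 is too small to set against the 5.85% of all broad peaks.

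A larger share of broad peaks than of 200 bp peaks overlapped the first duplicate. Overlap of at least 1 bp was found for 5.85% of the 3434 broad peaks (95% Wilson interval 5.12 to 6.69). Over all peaks of the second duplicate on the chromosomes the share was 3.07%. It was 2.86% (2.49 to 3.28) for the 6829 intermediate peaks and 1.21% (0.925 to 1.58) for the 4384 peaks of 200 bp, where 53 overlapped. The ratio of broad to 200 bp shares was 4.84 (95% interval 3.59 to 6.53 from counting error). A wide peak offers more sequence to be overlapped: the mean width of a broad peak plus that of a first-duplicate peak was 836.3 bp, 2.06 times the 406.6 bp of the 200 bp class. When every second-duplicate peak was set to 200 bp around its centre, the ratio was 2.84 (2.06 to 3.92). Most broad peaks had no counterpart, and the first-duplicate peaks under broad peaks numbered 204 of 20373, or 1.00% (0.874 to 1.15).

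Inside the broad class, the share that overlapped was higher among the wider peaks. It was 4.36% (3.27 to 5.78) at 500 to 550 bp and 4.11% (3.08 to 5.48) at 550 to 600 bp. It reached 6.81% (5.28 to 8.74) at 600 to 750 bp and 9.91% (7.44 to 13.1) at 750 to 1000 bp. At 1000 bp or more, 13 of 76 peaks overlapped, 17.1% (10.3 to 27.1). The intervals of neighbouring classes overlap, and those of the narrowest and the 2 widest broad classes do not. With broad set at 750 bp or more, the ratio to the 200 bp class was 9.08. Overlap grows with width by itself, so these shares do not separate width from nearness. A first-duplicate centre lay within 1 kb of 6.78% (5.40 to 8.48) of peak centres at 500 to 550 bp. This share was 7.38% at 550 to 600 bp, 11.2% at 600 to 750 bp and 12.4% at 750 to 1000 bp. At 1000 bp or more it was 17.1% (10.3 to 27.1).

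The difference was also present in distances between centres, which a greater width does not shorten by itself. A first-duplicate centre lay within 1 kb of 8.97% of broad peak centres, against 6.30% over all peaks of the second duplicate and 4.11% for 200 bp peaks. The ratio of broad to 200 bp peaks was 2.57 (1.93 to 3.43) within 250 bp, 2.80 (2.22 to 3.53) within 500 bp, 2.18 (1.83 to 2.61) within 1 kb, 1.41 (1.27 to 1.55) within 5 kb and 1.09 (1.06 to 1.13) within 50 kb. The median distance to the nearest first-duplicate centre was 23.6 kb for broad peaks and 29.6 kb for 200 bp peaks. The ratio was above 1 at every distance given, and smaller at 5 and 50 kb than at 1 kb or less.

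The density of first-duplicate centres fell steeply away from a broad peak. Within 250 bp of a broad centre it was 79.2 per Mb (exact Poisson 95% interval 66.5 to 93.7, from 136 centres). From 250 to 500 bp it was 48.9 per Mb (39.0 to 60.6), and from 1 to 2 kb it was 19.1 (15.9 to 22.6). At 50 to 100 kb it had come down to 11.6 (11.24 to 11.96), so the nearest density was 6.83 times the distant one. Around 200 bp peaks the density within 250 bp was 31.0 per Mb (24.1 to 39.3), 2.78 times the 11.1 at 50 to 100 kb, and from 250 to 500 bp it was 14.6 (10.0 to 20.6). The distant levels of the classes were close to each other, with 11.6, 11.5 and 11.1 per Mb for broad, intermediate and 200 bp peaks. From 500 bp to 1 kb the interval of broad peaks (28.5, 23.2 to 34.8) overlapped that of 200 bp peaks (19.2, 15.3 to 23.7).

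**Figure D2:**
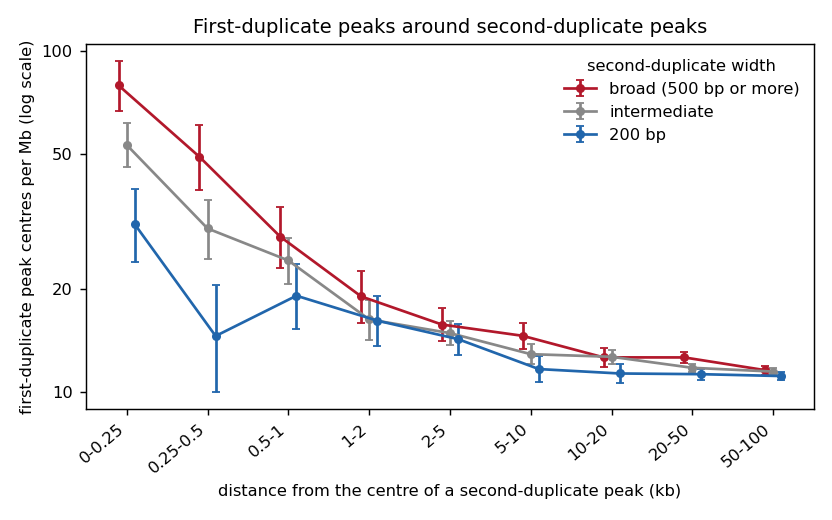
Density of first-duplicate peak centres per Mb (log scale) against distance in kb from the centre of second-duplicate peaks of 3 width classes; points are pooled over chromosomes 1 to 10 and bars are exact Poisson 95% intervals. Broad peaks stand highest within 500 bp, with 79.2 per Mb in the innermost class against 31.0 for 200 bp peaks, and all classes come down to between 11.1 and 11.6 per Mb at 50 to 100 kb.

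Broad and 200 bp peaks differed beyond counting error at scores of 80 and over. Width and score move together, so the classes were set side by side within ranges of score. At scores of 40 to 60, 5.32% of 2257 broad peaks (4.47 to 6.32) and 4.23% of 284 peaks of 200 bp (2.43 to 7.24) overlapped the first duplicate. At 60 to 80 the shares were 5.37% of 670 (3.91 to 7.35) and 2.87% of 314 (1.52 to 5.36). At 80 to 120 they were 8.89% of 360 (6.37 to 12.3) and 0.739% of 1895 (0.441 to 1.24), which do not overlap. At 120 to 200 they were 7.32% of 123 (3.90 to 13.3) and 0.924% of 1190 (0.517 to 1.65). At 200 or more, 4 of 24 broad peaks overlapped, 16.7% (6.68 to 35.9), and 7 of 701 peaks of 200 bp, 0.999% (0.485 to 2.05).

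Most 200 bp peaks, 3786 of 4384, scored 80 or more, whereas 507 of the 3434 broad peaks did. With 80 as a boundary, chosen after these classes were seen, the ratio of broad to 200 bp overlap was 1.52 (0.971 to 2.37) below it and 10.5 (6.74 to 16.4) from it upwards. For a first-duplicate centre within 1 kb, the ratio was 1.02 (0.761 to 1.36) below 80, where 8.51% of broad and 8.36% of 200 bp peaks qualified. From 80 upwards it was 3.39 (2.53 to 4.54), where 11.6% and 3.43% qualified. The intervals below 80 include 1, and they leave room for a difference in either direction. Below 80 there were 598 peaks of 200 bp and 4681 intermediate peaks. Of the intermediate peaks there, 2.88% (2.44 to 3.40) overlapped the first duplicate, against 5.33% (4.57 to 6.20) of broad peaks. A first-duplicate centre lay within 1 kb of 6.67% (5.99 to 7.42) and 8.51% (7.55 to 9.57). In both measures the intervals of broad and intermediate peaks do not overlap. The change of the ratio between the ranges of score was not tested. In the lower-scoring 50% of the second duplicate as a whole, the ratios were 1.56 (0.892 to 2.72) for overlap and 1.02 (0.715 to 1.45) for centres within 1 kb. In the higher-scoring 50% they were 7.89 (5.33 to 11.7) and 2.88 (2.22 to 3.73).

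**Figure D3:**
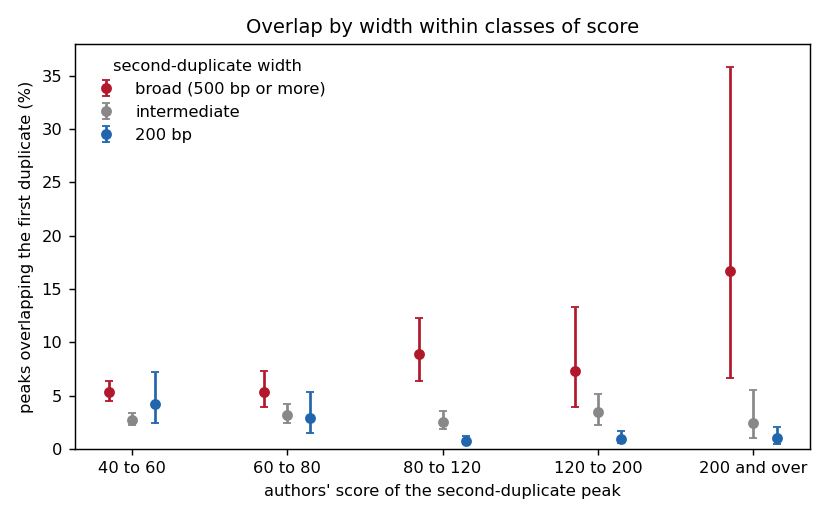
Share of second-duplicate peaks (%) that overlap a first-duplicate peak by at least 1 bp, in 5 ranges of the authors' score and 3 classes of width; bars are 95% Wilson intervals. Broad peaks lie between 5.32% and 16.7% in all ranges, whereas 200 bp peaks fall from 4.23% at 40 to 60 to below 1.00% from 80 upwards.

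The higher share of broad peaks was found on every chromosome. It ran from 3.45% on chromosome 9 (9 of 261 peaks) to 7.41% on chromosome 10 (20 of 270), and that of 200 bp peaks from 0.621% on chromosome 3 to 1.90% on chromosome 8. Broad peaks were higher on 10 of 10 chromosomes, and the lowest broad share was above the highest 200 bp share. The same held for a first-duplicate centre within 1 kb, at 6.06% to 10.7% for broad peaks and 3.20% to 5.18% for 200 bp peaks. Overlap between 25% and 75% of the chromosome span was 6.00% against 1.49% (ratio 4.02), and in the outer parts 5.64% against 0.903% (ratio 6.25, 3.81 to 10.3).

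**Figure D4:**
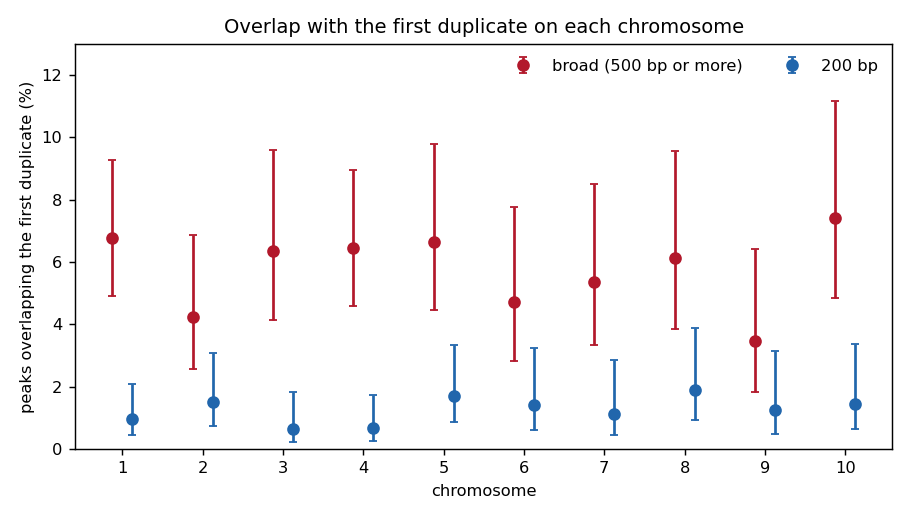
Share (%) of broad peaks (red) and of 200 bp peaks (blue) of the second duplicate that overlap a first-duplicate peak, on each of the 10 chromosomes, with 95% Wilson intervals. The broad share is the higher on every chromosome, and the intervals are apart on 6 of them; on chromosomes 2, 6, 8 and 9 they overlap.

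The first-duplicate peaks found under broad peaks were mostly narrow, as were those of the first list as a whole. Of the 204, 191 (93.6%) were exactly 200 bp wide, beside 19465 of all 20373 first-duplicate peaks. The share was 96.4% for partners of intermediate peaks and 96.2% for partners of 200 bp peaks. Of the 204, 127 (62.3%) lay entirely inside the broad peak. More of their centres, 102, fell in the central 50% of the broad peak than between that and an edge, an equal length, where 68 fell. A further 34 lay beyond an edge, and the median distance from the broad centre was 166.75 bp. Their own scores had a median of 248.6 (interquartile range 152.6 to 453.3), against 282.63 for all first-duplicate peaks. In 4 equal classes of the first-duplicate score, from lowest to highest, 0.982%, 1.22%, 0.982% and 0.825% of peaks overlapped a broad peak, and all these intervals overlap. Broad peaks with a counterpart had a median width of 635 bp and a median score of 53.71, and those without had 581 bp and 52.37.

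A few regions were unusual among these. Only 3 broad peaks overlapped 2 first-duplicate peaks each, all on chromosome 1 and named here after their values were seen. In the first, at 138289469 to 138290434, both first-duplicate peaks lay inside, with scores of 282.63 and 237.92. In the second, at 153813723 to 153814675, the partner inside scored 282.63 and the other, with 43 bp in common, 3100. In the third, at 220720865 to 220721865, the partner inside scored 2318.54 and the other, with 28 bp in common, 131.8. Another 3 regions, likewise named afterwards, were 500 bp or more in both duplicates, out of 133 such peaks in the first. They lie at 236781845 to 236782680 of chromosome 1 (836 bp, with a 560 bp partner and 489 bp in common), at 108361870 to 108362413 of chromosome 2 (544 bp, with a 500 bp partner and 131 bp in common) and at 64983355 to 64983981 of chromosome 3 (627 bp, with a 600 bp partner and 294 bp in common). Their second-duplicate scores were 48.78, 49.52 and 52.0, all near the broad median.

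Of the broad peaks with a counterpart, 6 met a first-duplicate peak of score 3100, the highest score among these partners. These were 6 of the 204 first-duplicate peaks under broad peaks, beside 6 of 195 under intermediate and 1 of 53 under 200 bp peaks. The share over all first-duplicate peaks is not given. The broad peak of these 6 with the highest second-duplicate score, 88.79, was the region of 153813723 to 153814675 of chromosome 1, where both peaks had 43 bp in common. The next were at 24306805 to 24307378 of chromosome 2 (67.01, 160 bp in common) and at 37255781 to 37256343 of chromosome 10 (61.11, 43 bp). The remaining 3 were at 77475896 to 77476686 of chromosome 6, at 104252474 to 104253367 of chromosome 2 and at 154296870 to 154297378 of chromosome 5. Further down the first 10 by first-duplicate score, partners of 2685.01 to 2932.79 met broad peaks scored only 43.32 to 49.52. The second-duplicate scores of these 10 ran from 41.74 to 88.79, beside an interquartile range of 45.34 to 65.04 for all broad peaks. The 10 were picked by first-duplicate score and were not compared with broad peaks whose partners scored lower.

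A larger share of broad than of 200 bp peaks lay towards the middle of chromosomes. Position comes from the second duplicate itself, so these are descriptions. The middle 50% of the span held 58.2% of broad peaks (56.6 to 59.9), 54.8% of intermediate peaks and 52.0% of 200 bp peaks (50.5 to 53.5), against 54.8% of all second-duplicate peaks and 53.8% of all first-duplicate peaks. The broad share was higher than the 200 bp share on 10 of 10 chromosomes. It ran from 53.9% on chromosome 4 to 67.3% on chromosome 8, and the 200 bp share from 46.9% to 57.3%. In steps of 10% of the span, the broad share was highest from 40% to 50%, at 13.5% (12.4 to 14.7), and lowest from 90% to 100%, at 7.40% (6.57 to 8.32). The 200 bp share in these steps was 11.1% (10.2 to 12.1) and 9.67% (8.83 to 10.6). The outer 10 Mb of the chromosome ends, 9.72% of the span, held 7.25% of broad peaks and 9.90% of 200 bp peaks, and the broad share was the lower on all 10 chromosomes.

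**Figure D5:**
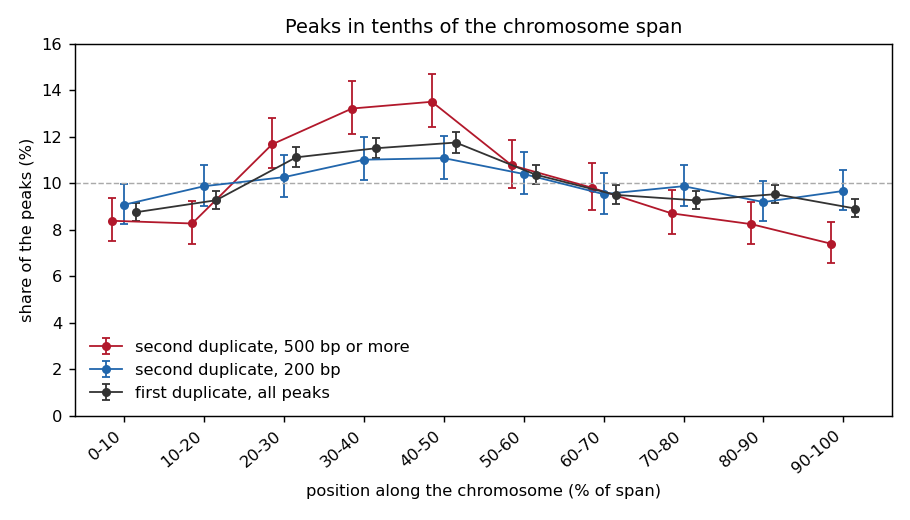
Share of peaks (%) in each 10% of the chromosome span, pooled over chromosomes 1 to 10, for broad (red) and 200 bp (blue) peaks of the second duplicate and all peaks of the first (black); bars are 95% Wilson intervals and the dashed line marks an even 10%. Broad peaks reach 13.5% from 40% to 50% of the span and fall to 7.40% in the last 10%, a wider range than that of 200 bp peaks.

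Broad peaks were densest on chromosome 4 and sparsest on chromosome 3. Chromosome 4 held 497, or 2.06 per Mb (exact Poisson interval 1.88 to 2.25), and chromosome 3 held 315, or 1.36 (1.21 to 1.52), a ratio of 1.52. The 200 bp peaks covered a narrower range, with 1.97 per Mb on chromosome 2 as the lowest value and 2.44 on chromosome 4 as the highest. On chromosome 3 there were 65.2 broad peaks for every 100 peaks of 200 bp, and on chromosome 4 there were 84.2, with the other chromosomes between. In windows of 1 Mb, broad peaks had a mean of 1.67 and a variance of 2.17, a ratio of 1.30, against 1.39 for intermediate and 1.11 for 200 bp peaks. No broad peak lay in 22.6% of windows, and no 200 bp peak in 12.0%. The 200 bp peaks had the higher mean per window, 2.13, and a higher mean leaves fewer windows empty. The fullest window, from 47 to 48 Mb of chromosome 10, held 9.

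The number of broad peaks in windows of 5 Mb ran from 0 to 27, and that of 200 bp peaks from 1 to 27. The fullest 5 Mb window of broad peaks was 45 to 50 Mb of chromosome 10, with 27 broad and 15 peaks of 200 bp, where medians over the 408 windows were 8 and 10. The window held 57 first-duplicate peaks, and 0 of its broad peaks overlapped one. The next was 105 to 110 Mb of chromosome 4, with 22 broad and 7 peaks of 200 bp, where 3 broad peaks overlapped the first duplicate. Further full windows held 21 broad peaks, beside 12 peaks of 200 bp at 40 to 45 Mb of chromosome 10. The numbers were closer on chromosome 4, with 21 of each at 115 to 120 Mb and 21 and 18 at 85 to 90 Mb. Broad peaks that overlapped the first duplicate numbered 4 at 40 to 45 Mb of chromosome 10. On chromosome 4 they numbered 0 at 115 to 120 Mb and 2 at 85 to 90 Mb. At the other end, 180 to 185 Mb of chromosome 3 and 150 to 155 Mb of chromosome 8 held 0 broad peaks beside 12 and 7 peaks of 200 bp. These windows were the lowest of the 408, and a count of 0 does not exclude an expected number above 0.

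Over all scores, broad and 200 bp peaks had similar shares with another peak of their own list nearby. Another second-duplicate centre lay within 10 kb of 20.6% of broad peaks, of 20.3% of 200 bp peaks and of 20.4% of all peaks of that list. The ratio of the first pair was 1.02 (0.931 to 1.11), and broad peaks were higher on 6 of 10 chromosomes. Within 100 kb the ratio was 1.04 (1.01 to 1.06). The median distance to the nearest centre was 37.1 kb for broad and 40.7 kb for 200 bp peaks. Within 500 bp only 0.0874% of broad peaks had a neighbour, against 0.365% of 200 bp peaks, a scale at which the width of the peaks itself keeps centres apart.

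The neighbours of broad peaks were of all widths. The nearest peak was broad for 22.8% of broad peaks (21.4 to 24.2) and for 23.8% of 200 bp peaks (22.5 to 25.1), close to the 23.4% of broad peaks in the list. When only broad neighbours were counted, a broad centre lay within 10 kb of broad peaks more often than of 200 bp peaks, with a ratio of 1.21 (1.00 to 1.46). Linking broad centres no more than 10 kb apart left 3237 alone and joined 197 (5.74%), in 92 pairs, 3 triplets and 1 group of 4. Linked in the same way within their own class, 6.96% of 200 bp peaks and 10.0% of intermediate peaks were joined. Both classes are more numerous than the broad class, so these shares do not compare clustering at equal numbers. The group of 4 spans 16.6 kb at 15207800 to 15224353 of chromosome 1, with widths of 516 to 733 bp and scores of 43.32 to 62.86. The tightest triplet spans 6.42 kb at 80350923 to 80357345 of chromosome 3, with widths of 713 to 826 bp.

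The donor segments held broad peaks at about the density of the rest of their chromosomes. The labels place the borders on build AGPv2. Whether the lists use that build is not stated, and the counts assume it. The chromosome 1 segment, which carries P1-rr, held 59 broad peaks, 1.90 per Mb (1.45 to 2.46), against 1.69 outside it. The chromosome 6 segment held 28, or 2.15 per Mb (1.43 to 3.11), against 1.72 outside. Both intervals include the outside value. In each segment 3 broad peaks overlapped the first duplicate, 5.08% (1.74 to 13.9) of those on chromosome 1 and 10.7% (3.71 to 27.2) of those on chromosome 6, intervals that include the 5.85% of all broad peaks. On chromosome 1 they lie at 38228304 to 38229019 (716 bp), at 50778674 to 50779177 (504 bp) and at 60799402 to 60800074 (673 bp). Their second-duplicate scores were 43.32, 43.32 and 148.96, and the first-duplicate scores 829.18, 152.6 and 375.29. On chromosome 6 they lie at 89288825 to 89289629 (805 bp), at 98787426 to 98788193 (768 bp) and at 101487154 to 101487756 (603 bp), with scores of 45.62, 46.50 and 53.90 in the second duplicate and 375.29, 152.6 and 724.22 in the first. The centres of the first region, on chromosome 1, lay 7 bp apart in the duplicates.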

How the data were processed

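Base calling with CASAVA 1.4 and alignment with Bowtie are named in the submitters' processing notes. The peaks bear the name of MACS in the deposited lists. No source used here gives the caller's version, its settings or the reference build. Each deposited list sets 1 P-rr library against the P-ww library of its number, per the labels. The score of each peak is the authors' deposited value, used only to describe and group peaks within a list. The 72 second-duplicate peaks outside chromosomes 1 to 10, 29 of them broad, were left out.

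Widths, centres, distances and overlaps (1 bp or more) were computed in Python 3.11.15 (pandas 2.3.3, numpy 2.4.6). The 449 overlapping peaks were also counted with bedtools 2.31.1, with the same result. The span of a chromosome ends at the largest peak end in either list. Shares carry Wilson, densities exact Poisson and ratios log-normal (Katz) intervals at 95%, from scipy 1.17.1, for counting error only. Figures used matplotlib 3.10.9. Overlap and distance steps were tested on simulated data. The regions named are the 10 widest, the 10 highest-scoring and the 10 with the highest first-duplicate score, plus shared broad peaks of the donor segments. Members and comparisons were chosen with earlier results of these data known. A total of 0 value columns was left unmapped.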

Additional observations from a re-analysis of the deposited data

Results flagged for a closer look

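Broad peaks also occurred outside the 10 chromosomes, in sequence that took no part in the comparisons, where any number above 3 was listed. That limit is no expectation for these sequences, and on the chromosomes 23.4% of peaks were broad. The mitochondrial genome held 17 broad peaks among its 29 second-duplicate peaks, 58.6%, and 0 peaks of 200 bp. Their median score was 59.89 and their highest 140.35, the widest measured 3615 bp, and 2 of the 17 overlapped a first-duplicate peak. The first duplicate held 5 mitochondrial peaks, 1 of them broad. Unplaced sequence held 12 broad peaks among 43, 27.9%, with a median score of 54.48, and 1 of them overlapped the first duplicate.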

How the results depend on the processing

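Of 47 alternative values, 20 stayed within the counting interval of the reported value, and 27 moved beyond it. The clustering ratio, whose interval includes 1, fell below 1 in 2 of its 9 alternatives. No other ratio of broad to reference peaks did so. A total of 5 (peaks set to 500 bp, and middle or outer parts alone) were chosen after seeing the data. The ratios for overlap and for nearness were above 1 under all 11 alternatives each, which include intermediate peaks as the reference and other distances. In the lower-scoring 50%, which holds 2674 of the broad peaks and 384 of the 200 bp peaks, both intervals include 1 (0.892 to 2.72 and 0.715 to 1.45). The overlap ratio was 9.08 with broad at 750 bp, 2.05 against intermediate peaks, 1.56 in the lower-scoring and 7.89 in the higher-scoring 50%, 2.84 with peaks set to 200 bp, 2.74 with peaks set to 500 bp and 6.82 for overlaps of 100 bp. The ratio for nearby centres was 3.20 at 750 bp, 1.41 against intermediate peaks, 1.02 and 2.88 in the lower-scoring and higher-scoring 50%, and 1.41 at 5 kb. The clustering ratio was 0.986 at 750 bp and 1.21 for broad neighbours only. It was 0.825 (0.680 to 0.9996) in the lower-scoring and 1.15 (0.996 to 1.33) in the higher-scoring 50%. The ratio for the middle of chromosomes was 1.18 at 750 bp, 1.06 against intermediate peaks, 1.21 and 1.07 in the lower-scoring and higher-scoring 50%, and 1.03 for all but the outer 10 Mb. The highest-to-lowest chromosome density was 1.86 at 750 bp. The median score was 55.2 at 750 bp and, by construction, 48.9 and 88.55 in the lower-scoring and higher-scoring 50%. For the other settings the cause was not tested. Without replicate 2, the rule applied to the 133 first-duplicate peaks gave 1.19 (0.920 to 1.53) for clustering and 1.12 (0.974 to 1.29) for the middle of chromosomes. It gave 2.41 (0.998 to 5.81) for density. The intervals of these 3 ratios include 1. The median score was 225.07, on that list's own scale. Overlap needs both duplicates and has no such value. No paired analysis was possible because the lists give peaks per pair of libraries and no value per library. Without read counts, the precision of a single peak is unknown.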
